A study of Mus musculus with 8 samples.

Results

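The genes described here encode the enzymes of cholesterol and fatty acid synthesis together with the sterol sensors and transcription factors that control them. The set was listed by function and held 33 genes. Of these, 32 had at least 1 probe set carrying their symbol alone, out of 18193 genes measured; Acat2 was not analysed here. The 32 genes had 74 probe sets, and each gene was represented by its probe set with the highest mean log2 intensity over all 8 arrays.

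L-GMPs were compared with GMPs. Both were sorted by flow cytometry from mouse bone marrow cells as granulocyte-macrophage progenitors, the precursors of neutrophils and monocytes. The 4 L-GMP arrays, A to D, came from leukaemic mice with the genotype label HoxA9+Meis1 AML, an acute myeloid leukaemia named for the homeobox genes Hoxa9 and Meis1. The 4 GMP arrays, A to D, came from marrow of mice labelled Normal. How the factors were introduced, and the strain, age and gate of the mice and cells, are not given in the sources used here. Whether each array stands for a different animal is not stated in the labels, and a p-value here reflects the spread between arrays alone, which may be technical. In sorted bulk samples, fewer cells of a type and less RNA per cell cannot be told apart.

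Animal cells build cholesterol from acetyl-CoA through mevalonate, isoprenoid diphosphates, squalene and lanosterol. The membrane-bound SREBP factors drive this pathway: when sterol in the endoplasmic reticulum is low, SCAP carries them to the Golgi for cleavage, and when sterol is high, INSIG proteins hold SCAP back. SREBP-2, encoded by Srebf2, acts mainly on sterol genes, and SREBP-1, encoded by Srebf1, mainly on genes of fatty acid synthesis and desaturation. In dividing blood progenitors these pathways supply membrane lipid, and the isoprenoid branch supplies the lipid anchors of prenylated proteins.

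The 2 groups differed widely outside the lipid genes. The log2 intensities of the arrays had lower quartiles of 3.65 to 3.75 and medians of 5.24 to 5.49, and probe sets correlated at 0.983 to 0.994 within groups and 0.967 to 0.974 between them (across probe sets, which are not independent). L-GMP array B and GMP array A stood somewhat apart from the rest of their groups. The difference between the 3' and 5' probe sets of Gapdh, a sign of RNA quality, was 1.40 ± 0.13 in L-GMPs and 1.87 ± 0.60 in GMPs (SD, n = 4 each), with 2.74 on GMP array D. Primary granule and progenitor genes were bright on all arrays. Their summed linear intensity was 23134.5 to 27329.8 in L-GMPs and 35438.4 to 37584.8 in GMPs, and 4 of 7 were lower in L-GMPs. The lower genes were Mpo, Elane, Prtn3 and Kit, while Ctsg, Cd34 and Fcgr3 were not called. Monocyte and macrophage markers were higher in 5 of 7 (sums of 6351.6 to 10273.3 in L-GMPs and 3417.3 to 4010.9 in GMPs). Cd14 and Csf1r were not called, with log2 differences, L-GMP minus GMP, of 0.99 and -0.24. Eosinophil and basophil markers were lower in 6 of 6 (113.7 to 626.9 in L-GMPs and 2434.9 to 8873.8 in GMPs), and megakaryocyte and erythroid markers in 4 of 7 (170.8 to 247.2 in L-GMPs and 499.9 to 1971.6 in GMPs). By limma, 0 of 4 lymphoid and 0 of 4 adipocyte or stromal markers were called (1 and 0 at an unadjusted p under 0.05). Adipoq was below the lower quartile on every array, and the sums of these lists were 63.0 to 71.3 and 85.0 to 89.2 in L-GMPs, against 61.2 to 65.2 and 82.4 to 91.8 in GMPs. No marker was listed at 0. The part of these cell type markers and of RNA quality in the lipid gene results was not tested.

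Of the 32 cholesterol and fatty acid synthesis genes, 2 differed between the groups, and they encode consecutive enzymes. Sqle, squalene epoxidase, was 2.04-fold lower in L-GMPs, and Lss, the lanosterol synthase that folds the epoxide of squalene into the first sterol, was 1.48-fold higher. Differences were tested with limma on all 18193 genes and called at an adjusted p under 0.05 (Benjamini-Hochberg), as the log2 difference of L-GMP minus GMP. The members called were thus 6.25%, beside 12.1% of all genes tested. The single higher member stood beside 4.78% of all genes called higher, and the single lower member beside 7.27% called lower. At an unadjusted p under 0.05 there were 10 members, or 31.2%, beside 26.2% of all genes. The 4 L-GMP and 4 GMP values did not overlap in 5 members, or 15.6%, beside 18.2% of all genes. The share of called members was thus below that of all genes in this fit, and the other shares were near it. With 2 calls, this order is not firm. It was reversed with each array centred on its median, where 6 members were higher and 1 lower, beside 17.6% of all genes called. Averaging of probe sets, array weights and a block for the replicate letter also reversed it. So did leaving out L-GMP array C, or L-GMP array B together with GMP array A or D. The remaining settings kept it. Without the dimmest 50% of genes, 2 of 30 members were higher and 1 lower, beside 19% of all genes called.

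The differences were about as large as those of other genes. The median log2 difference of the members was -0.06 and that of all genes 0.01. Of the members, 13 had positive and 19 negative differences, so that 40.6% were positive, against 52.1% of all genes. The median absolute difference was 0.21 in the members and 0.17 in all genes, and 3 members (9.38%) differed by at least 1.5-fold, against 9.79% of all genes. The precision allowed limits to be set for the chosen probe set of many members. In the probe set standing for the gene, the 95% interval of the difference lay within 1.5-fold either way for 19 of 32. These limits hold for that probe set alone. The 19 included Acly, Insig2 and Scap, each with another probe set that was called, and Scd1, which was dim. The SE of the members was 0.09 to 0.29. L-GMP arrays had the larger SD for 20 of 32 members (62.5%), against 51.4% of all genes. Centring each array on its median gave a median difference of 0.09 for the members and 0.15 for all genes, so differences of this size hold only relative to that shift.

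**Figure D1:**
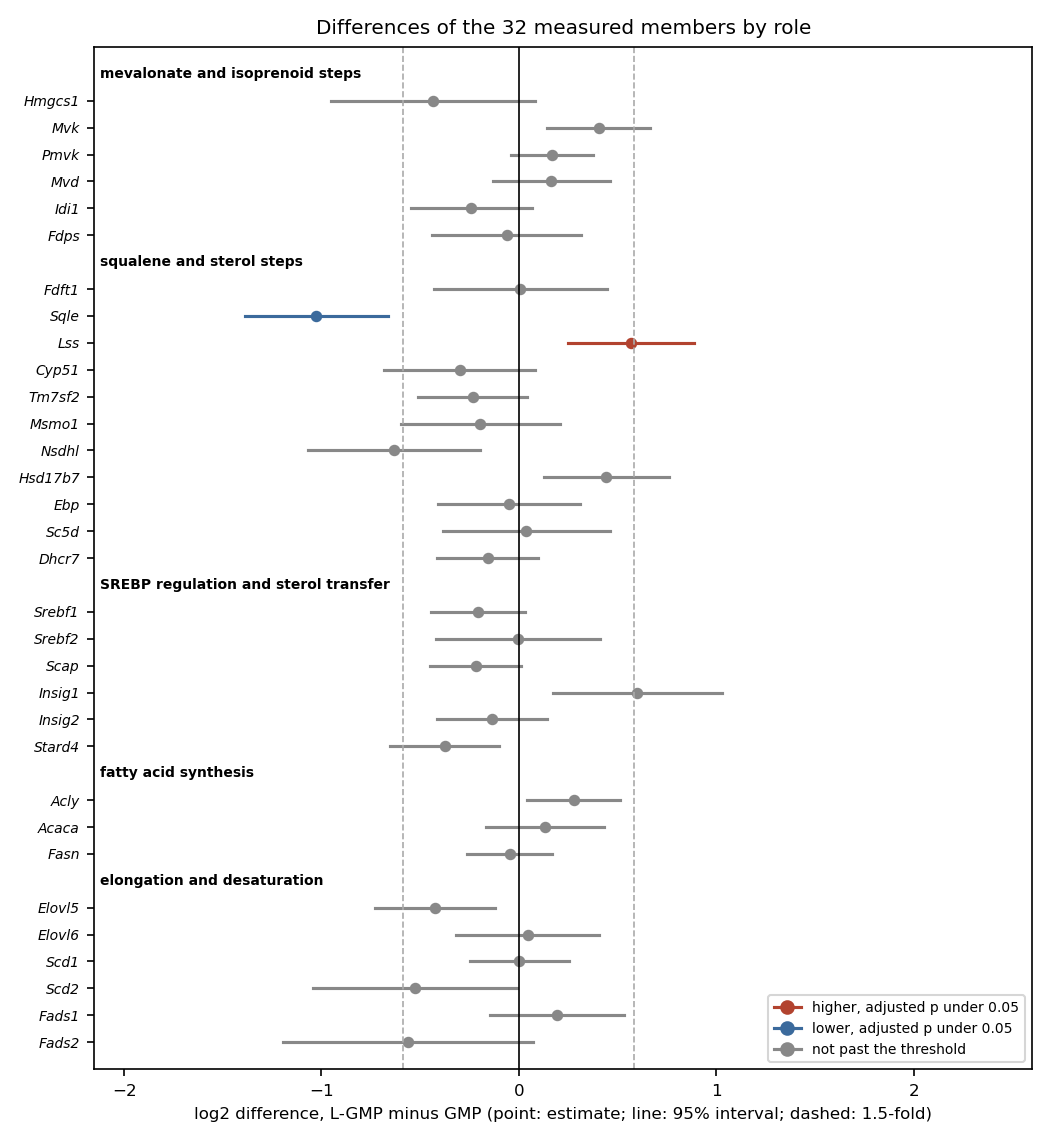
Log2 difference, L-GMP minus GMP, of the 32 measured members grouped by role; points are estimates, lines 95% intervals, and dashed lines mark 1.5-fold. Sqle lies left of -0.66 with its whole interval, Lss lies right of 0.25, and the other 30 members did not pass the threshold.

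The mevalonate and isoprenoid steps were covered by 6 members, and none passed the threshold (1 at an unadjusted p under 0.05, Mvk). Hmgcs1, the HMG-CoA synthase at the entry of the pathway, had log2 intensities of 9.19, 9.70, 9.73 and 8.89 on L-GMP arrays A to D and 10.34, 9.52, 9.93 and 9.46 on GMP arrays A to D. The groups overlapped, with GMP array A highest and L-GMP array D lowest. Its difference was -0.43 (SE 0.23, adjusted p = 0.275), and its other 4 probe sets differed by -0.53 to -0.16, all without a call.

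Mvk, mevalonate kinase, had values of 7.59, 7.72, 7.69 and 7.40 in L-GMPs and 7.43, 7.18, 7.03 and 7.14 in GMPs. The groups overlapped only through L-GMP array D and GMP array A, and the difference of 0.40 (SE 0.12) had an adjusted p of 0.0504. The threshold was passed under 9 of 18 other settings (adjusted p 0.0154 to 0.198), among them without GMP array A (0.0218). The second Mvk probe set differed by 0.29 (adjusted p = 0.127). Its groups did not overlap, but L-GMP array A, at 6.88, lay just above GMP array A, at 6.87.

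Pmvk, phosphomevalonate kinase, had 8.92, 9.11, 9.01 and 8.92 in L-GMPs and 8.76, 8.88, 8.87 and 8.78 in GMPs. All L-GMP arrays thus lay above all GMP arrays, by a small margin, and the difference was 0.17 (SE 0.09, adjusted p = 0.289). Mvd, mevalonate diphosphate decarboxylase, differed by 0.17 (adjusted p = 0.477), with L-GMP values spread from 6.50 to 7.16 and GMP values within 6.62 to 6.69. The isomerase Idi1 had 8.78 to 9.10 in L-GMPs and 8.85 to 9.47 in GMPs, a difference of -0.24 (adjusted p = 0.309). Fdps, farnesyl diphosphate synthase, whose product feeds both sterols and protein prenylation, had 7.93 to 8.54 in L-GMPs and 7.96 to 8.64 in GMPs. Its difference was -0.06 with a 95% interval of -0.44 to 0.32.

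The squalene and sterol steps were covered by 11 members, of which 1 was higher, 1 lower and 9 not called (4 at an unadjusted p under 0.05). Fdft1, squalene synthase, joins farnesyl units into squalene. It had 6.77 to 7.63 in L-GMPs and 6.81 to 7.41 in GMPs, a difference of 0.01 with a 95% interval of -0.43 to 0.45.

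Sqle oxidises squalene to its epoxide, the first step of the pathway that needs oxygen and a known control point. Its single probe set had log2 intensities of 6.20, 6.62, 6.83 and 6.37 on L-GMP arrays A to D, against 7.16, 7.68, 7.68 and 7.60 on GMP arrays A to D. All L-GMP arrays were below all GMP arrays, and GMP array A was the lowest of its group, nearest to L-GMP array C. The difference was -1.03 (SE 0.16, 95% interval -1.39 to -0.66, adjusted p = 0.0024). It was called under all 18 other settings, with adjusted p of 0.000485 to 0.014 and differences of -1.19 to -0.88.

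Lss had 8.60, 8.67, 8.28 and 8.97 in L-GMPs, against 7.91, 8.22, 8.02 and 8.11 in GMPs. The groups did not overlap, but L-GMP array C lay just above GMP array B. The difference was 0.57 (SE 0.14, 95% interval 0.25 to 0.89, adjusted p = 0.0289). This call was close to the threshold. It was kept under 9 of 18 other settings and lost in 6 of the 8 that left out a single array, namely L-GMP array A (adjusted p = 0.0621), B (0.0516) or D (0.057) and GMP array A (0.0599), C (0.0769) or D (0.0652). A second Lss probe set differed by 0.55 (adjusted p = 0.0188), also without overlap, and another, dim one by 0.21 (0.692).

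SREBP is known to act at promoters together with NF-Y, which binds CCAAT, and Sp or KLF proteins, which bind GC boxes, and 3 member promoters are shown for these motifs. Lss is shown as the called member with a RefSeq window, and Hmgcs1 and Insig1 were added after their values were seen, Hmgcs1 for its sterol element and Insig1 as the feedback gene with the largest difference. The windows run from 250 bases before to 50 after the transcription start in RefSeq (GRCm38.p6): chr10:76531355-76531654 for Lss, chr13:119690101-119690400 for Hmgcs1 and chr5:28071162-28071461 for Insig1, all on the plus strand. Capitals mark matches, on either strand, to the sterol regulatory element TCACNCCAC, to CCAAT and to the GC box GGGCGG.
Lss: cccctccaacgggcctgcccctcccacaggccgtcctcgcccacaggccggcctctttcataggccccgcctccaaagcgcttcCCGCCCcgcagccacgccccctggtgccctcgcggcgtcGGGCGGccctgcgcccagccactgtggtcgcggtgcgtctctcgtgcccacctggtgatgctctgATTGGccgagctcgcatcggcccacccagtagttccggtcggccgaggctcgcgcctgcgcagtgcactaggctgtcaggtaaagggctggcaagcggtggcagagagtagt
Hmgcs1: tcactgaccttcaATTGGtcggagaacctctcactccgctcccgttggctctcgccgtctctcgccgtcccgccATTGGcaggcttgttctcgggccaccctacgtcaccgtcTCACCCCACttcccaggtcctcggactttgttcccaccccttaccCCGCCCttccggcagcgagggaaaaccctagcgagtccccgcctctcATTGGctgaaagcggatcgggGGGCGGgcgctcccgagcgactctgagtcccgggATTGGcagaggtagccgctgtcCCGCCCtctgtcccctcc
Insig1: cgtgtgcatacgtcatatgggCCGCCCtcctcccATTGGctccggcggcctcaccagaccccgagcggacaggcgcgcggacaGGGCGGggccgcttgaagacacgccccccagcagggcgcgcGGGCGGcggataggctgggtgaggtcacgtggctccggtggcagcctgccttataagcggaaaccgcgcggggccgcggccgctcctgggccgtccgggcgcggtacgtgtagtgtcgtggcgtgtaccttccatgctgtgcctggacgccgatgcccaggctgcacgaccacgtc
Hmgcs1 held the sterol element on the window strand, with its first base at position -137 from the start, 4 CCAAT boxes and 3 GC boxes. Lss held 1 CCAAT box, at -62, and 2 GC boxes. Insig1 held 1 CCAAT box, at -216, and 3 GC boxes. The sterol element was not among the letters of the Lss and Insig1 windows. Insig1 also held the E-box CACGTG, which is not capitalised.

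RefSeq windows were found for 25 of the 32 members. CCAAT was present in a window of 21 of these genes (84.0%), against 42.3% of 17492 protein-coding genes. The GC box was present in 20 (80.0%), against 49.2%. The E-box CACGTG, which SREBP factors can also bind, was present in 6 (24.0%), against 8.91%. The sterol element was present in 1, Hmgcs1 (4.0%), against 1.41%. The CCAAT boxes were thus found both in genes with positive differences (Lss, Mvk, Hsd17b7, Insig1) and in genes with negative ones (Hmgcs1, Nsdhl, Idi1). None of the searched motifs contains another, and a match describes letters in this window only.

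**Figure D2:**
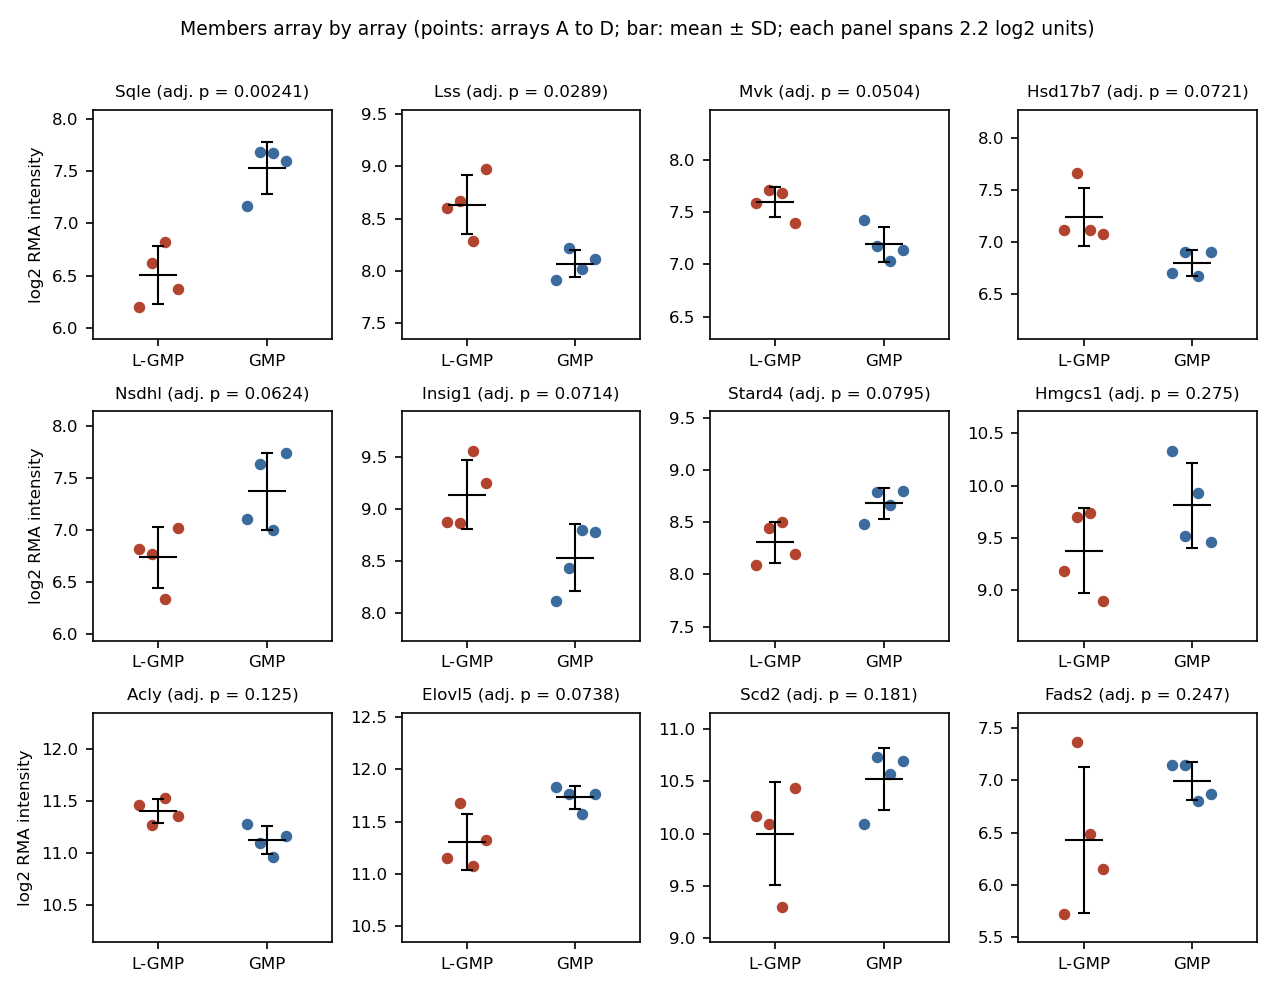
Log2 RMA intensity of 12 members on each array, L-GMP left and GMP right; points are arrays, and bars give mean ± SD (n = 4 per group). Sqle and Lss are parted in opposite directions, Insig1 and Hsd17b7 are parted without passing the threshold, and Fads2 spreads from 5.72 to 7.37 in L-GMPs.

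Among the steps after lanosterol, the groups were parted in Hsd17b7 alone. Hsd17b7, a sterol ketone reductase, had 7.11, 7.66, 7.11 and 7.08 in L-GMPs, against 6.70, 6.90, 6.68 and 6.90 in GMPs. L-GMP array B stood far above the other L-GMP arrays, which lay within 7.08 to 7.11. The difference was 0.44 (SE 0.14, adjusted p = 0.0721), and a second probe set differed by 0.38 (adjusted p = 0.0525), again without overlap. The threshold was passed under 2 of 18 other settings (0.0157 to 0.201). Its other 2 probe sets, both dim, differed by 0.02 and 0.01.

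Nsdhl, the dehydrogenase that acts beside it in removal of the methyl groups, had 6.82, 6.77, 6.33 and 7.02 in L-GMPs and 7.11, 7.63, 7.00 and 7.74 in GMPs. The groups overlapped slightly at L-GMP array D and GMP array C, and the GMP arrays lay in a higher pair, B and D, and a lower pair, A and C. The difference was -0.63 (SE 0.20, 1.55-fold, adjusted p = 0.0624), the second largest among the members by size. It passed the threshold under 3 of 18 other settings (0.0207 to 0.198), among them without GMP array C (0.0489). Cyp51, lanosterol demethylase, had 7.54, 7.25, 8.16 and 7.43 in L-GMPs and 7.83, 7.85, 7.98 and 7.92 in GMPs. L-GMP array C was above every GMP array and the other 3 L-GMP arrays below. The difference of -0.30 (adjusted p = 0.308) became -0.49 (0.0255) without L-GMP array C. That was the only call, 1 of 18 other settings (0.0255 to 0.646). Further Cyp51 probe sets differed by 0.07 (0.851) and -0.37 (0.228).

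The remaining sterol enzymes gave small differences. Tm7sf2, a sterol reductase, differed by -0.23 (adjusted p = 0.267), and Msmo1, the methylsterol oxidase, by -0.19 (0.543). Ebp, the sterol isomerase, differed by -0.05 (0.885). L-GMP array A, at 8.44, lay above the GMP range of 7.91 to 8.25 for Ebp, and arrays C and D, at 7.76 each, below it. Sc5d, a sterol desaturase, differed by 0.04 (0.927), and GMP array A, at 6.43, lay below the other GMP arrays at 7.19 to 7.37. Dhcr7, which makes cholesterol from its last precursor in the Kandutsch-Russell branch, had 8.28 to 8.71 in L-GMPs and 8.61 to 8.77 in GMPs, a difference of -0.16 (0.428).

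Some arrays were often the highest or lowest of their group among the sterol enzymes. Over the 17 enzymes from Hmgcs1 to Dhcr7, L-GMP array C was the highest of its group in 9 and L-GMP array D the lowest in 10. GMP array A was the lowest of its group in 10, although it was the highest GMP array for Hmgcs1, Mvk and Fdft1. Insig1 and Srebf2 were also highest in their group on L-GMP array C. These counts describe the arrays and carry no test.

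**Figure D3:**
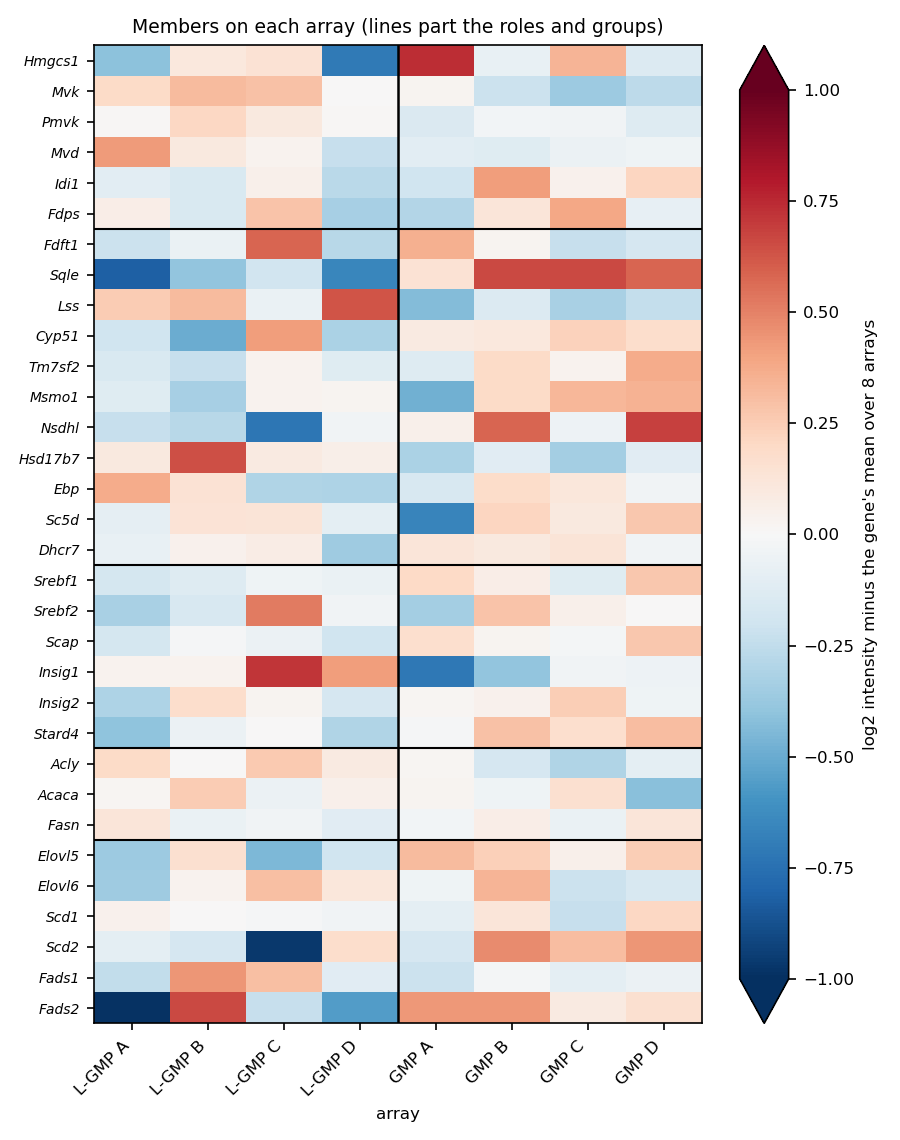
Log2 intensity of each member on each array minus the gene's mean over all 8 arrays (colour, log2 units), with L-GMP arrays on the left and GMP arrays on the right, and lines between roles. The Sqle row parts the groups, while L-GMP array C, L-GMP array D and GMP array A deviate in many sterol rows.

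The 6 members that regulate SREBP or transfer sterol gave no call (2 at an unadjusted p under 0.05, Insig1 and Stard4). Srebf2 had 6.62, 6.79, 7.46 and 6.91 in L-GMPs and 6.61, 7.23, 6.99 and 6.95 in GMPs. Its difference was 0.00 (adjusted p = 0.995, 95% interval -0.42 to 0.41), and its second probe set differed by 0.15 (0.632). Srebf1 had 7.16 to 7.29 in L-GMPs and 7.21 to 7.60 in GMPs, a difference of -0.21 (0.261).

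Insig1, itself a target of SREBP and a brake on it, had 8.87, 8.87, 9.55 and 9.25 in L-GMPs, against 8.12, 8.44, 8.80 and 8.78 in GMPs. The groups did not overlap, with L-GMP array B just above GMP array C. The difference was 0.60 (SE 0.19, 1.52-fold, 95% interval 0.17 to 1.03), the largest positive one among the members, with an adjusted p of 0.0714. It passed the threshold under 2 of 18 other settings (adjusted p 0.017 to 0.165).

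Insig2, which is not driven by SREBP in the same way, differed by -0.13 (adjusted p = 0.541) in its brightest probe set. Its other 2 probe sets parted the groups: 1 differed by -0.32 (0.0773) and 1 was lower, at -0.51 (0.0306). Scap differed by -0.22 (0.212), and a dim second Scap probe set was lower, at -0.77 (0.0166), with overlap. Stard4, a soluble sterol carrier, had 8.09, 8.44, 8.50 and 8.20 in L-GMPs and 8.48, 8.79, 8.66 and 8.80 in GMPs. The groups overlapped slightly at L-GMP array C and GMP array A, and the difference was -0.38 (SE 0.12, adjusted p = 0.0795). It passed the threshold under 3 of 18 other settings (0.024 to 0.197), among them without GMP array A (0.0479). Of its other probe sets, 1 differed by -0.27 (0.415) and 1 was lower, at -0.81 (0.0476).

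Fatty acid synthesis itself was covered by 3 members, with no call (1 at an unadjusted p under 0.05, Acly). Acly, ATP citrate lyase, supplies cytosolic acetyl-CoA to both pathways. It had 11.46, 11.27, 11.53 and 11.36 in L-GMPs and 11.28, 11.10, 10.96 and 11.17 in GMPs, with overlap only between L-GMP array B and GMP array A. The difference was 0.28 (SE 0.11, adjusted p = 0.125), and it passed the threshold under 2 of 18 other settings (0.0161 to 0.271). Further probe sets of Acly differed by 0.32 (0.139) and 0.24 (0.206), and another, at 5.58 ± 0.30 in L-GMPs and 4.46 ± 0.21 in GMPs (SD, n = 4 each), was higher by 1.12 (0.0019). Its last 2 probe sets lay near the bottom of the scale, at 2.30 to 2.39 on average in each group.

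Acaca, acetyl-CoA carboxylase, had 8.53 to 8.85 in L-GMPs and 8.18 to 8.75 in GMPs. Its 2 probe sets differed in sign, at 0.13 (adjusted p = 0.582) and -0.25 (0.313). Fasn, fatty acid synthase, had 8.42, 8.23, 8.26 and 8.19 in L-GMPs and 8.27, 8.36, 8.23 and 8.42 in GMPs. Its difference was -0.05 with a 95% interval of -0.26 to 0.17.

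Elongation and desaturation were covered by 6 members, again with no call (2 at an unadjusted p under 0.05, Elovl5 and Scd2). Elovl5, an elongase of polyunsaturated fatty acids, had 11.16, 11.68, 11.07 and 11.32 in L-GMPs and 11.83, 11.76, 11.57 and 11.76 in GMPs. Only L-GMP array B overlapped the GMP arrays. The difference was -0.42 (SE 0.14, adjusted p = 0.0738), and -0.55 (0.0124) without that array. The threshold was passed under 6 of 18 other settings (0.0124 to 0.177). The second Elovl5 probe set was lower, at -0.46 (0.0441) without overlap.

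Fads2, which desaturates the same class of fatty acids, showed the same array apart. It had 5.72, 7.37, 6.49 and 6.15 in L-GMPs and 7.15, 7.15, 6.80 and 6.87 in GMPs. L-GMP array B was above every GMP array and the other 3 below. The difference was -0.56 (SE 0.29, adjusted p = 0.247), and -0.87 (0.0106) without L-GMP array B. The threshold was passed under 3 of 18 other settings (0.0106 to 0.496), all of which left out that array. All 3 Fads2 probe sets had negative differences, of -0.67 to -0.56, none called. The neighbouring desaturase Fads1 also had its highest L-GMP value on array B, at 9.88, and differed by 0.19 (0.474).

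Scd2, a stearoyl-CoA desaturase that makes monounsaturated fatty acids, had 10.17, 10.10, 9.29 and 10.44 in L-GMPs and 10.09, 10.73, 10.57 and 10.70 in GMPs. L-GMP array C was the lowest, and GMP array A fell among the L-GMP arrays. The difference was -0.53 (SE 0.23, adjusted p = 0.181), and of its other probe sets 1 was lower, at -0.67 (0.0406) and 1 differed by -0.41 (0.276). Scd1, a related desaturase, had 2.89 to 2.97 in L-GMPs and 2.69 to 3.13 in GMPs, below the lower quartile of the arrays, so its difference of 0.00 says little about the gene. Elovl6, the elongase of saturated fatty acids, differed by 0.04 (0.899).

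**Figure D4:**
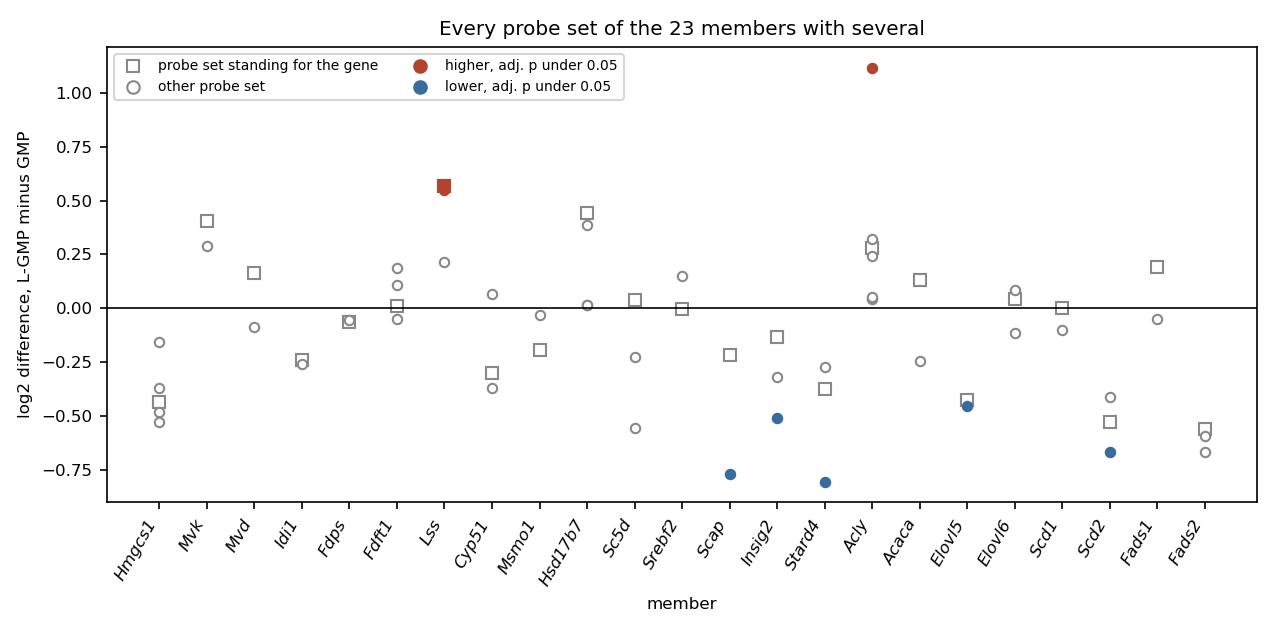
Log2 difference, L-GMP minus GMP, of every probe set of the 23 members with several; squares stand for the gene, circles are its other probe sets, and filled symbols passed an adjusted p of 0.05 over all probe sets. Filled circles lie above 0 for Lss and Acly and below 0 for Scap, Insig2, Stard4, Elovl5 and Scd2.

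Probe sets of 1 gene were compared in a fit of all probe sets. Of 42 second or further probe sets, 2 were higher (Lss and Acly) and 5 lower (Elovl5, Insig2, Scap, Scd2 and Stard4), beside 3.89% of all probe sets called higher and 7.03% called lower. Of the 23 members with several probe sets, 14 had differences of 1 sign throughout and 9 of both signs, and 0 had calls in opposite directions. For Acly, Insig2, Scap, Stard4, Elovl5 and Scd2 the call thus depended on the probe set. The probe sets standing for Acly, Elovl5, Fads2, Fdft1 and Hsd17b7 carry the suffix that Affymetrix gives to sets with probes that may match other transcripts, and those of Lss and Mvd the suffix for sets shared by several transcripts.

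Genes next to these pathways were counted in 7 further lists, to be read beside the 4.78% of all genes called higher and the 7.27% called lower, 12.1% in all. With 8 to 25 genes in a list and 0 to 3 calls in each, these counts are small. Among 8 other genes of mevalonate and sterol synthesis, 1 was lower and 0 higher. This was Acss2, the cytosolic acetyl-CoA synthetase that makes acetyl-CoA from acetate and is itself a target of SREBP. Acss2 had 5.07, 6.12, 5.15 and 5.52 in L-GMPs, against 7.30, 6.94, 6.73 and 6.93 in GMPs. The groups did not overlap, and the difference was -1.51 (SE 0.22, 2.85-fold, adjusted p = 0.00128). A second Acss2 probe set was lower, at -1.76 (0.00175), and another differed by -0.32 (0.382).

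Of 8 genes of SREBP cleavage and sterol-sensing turnover, 2 were lower and 0 higher. Pgrmc1, a haem-binding membrane protein, had 7.11, 7.34, 7.96 and 7.70 in L-GMPs and 8.19, 8.20, 7.90 and 8.59 in GMPs, overlapping at L-GMP array C and GMP array C. Its difference was -0.69 (SE 0.20, adjusted p = 0.0454), and the call was kept under 8 of 18 other settings (0.022 to 0.198). Erlin2, a scaffold of sterol-dependent degradation in the endoplasmic reticulum, was lower, at -0.46 (SE 0.10, adjusted p = 0.0164), without overlap.

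Of 10 genes of sterol uptake, trafficking and esterification, 1 was lower and 0 higher. Vldlr, a lipoprotein receptor, had 3.57, 3.53, 3.63 and 3.44 in L-GMPs, against 4.39, 5.91, 5.08 and 6.38 in GMPs. The difference was -1.90 (SE 0.35, adjusted p = 0.00538). The L-GMP values lay below the lower quartile of the arrays, where intensity says little about the level of a gene, and the GMP values were widely spread, so the direction is better grounded than the size. Its other 5 probe sets differed by -0.93 to -0.09, of which 1 was called, and the average of its probe sets differed by -0.76, also a call. Of 9 genes of LXR signalling and sterol efflux, 0 were called in either direction (3 at an unadjusted p under 0.05).

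Of 25 other genes of fatty acid synthesis, elongation and activation, 2 were higher and 1 lower. The largest difference in these 7 lists was that of Elovl7, an elongase of long-chain fatty acids. It had 9.44, 9.37, 9.89 and 9.93 in L-GMPs, against 7.43, 6.78, 7.03 and 7.19 in GMPs. The groups were far apart, with a difference of 2.55 (SE 0.17, 5.86-fold, adjusted p = 5e-06), and all 6 of its probe sets were higher, by 1.27 to 2.55. Thrsp, a nuclear protein linked to lipogenesis in liver, was higher by 0.50 (adjusted p = 0.0421), and Hacd2, a dehydratase of the elongation cycle, was lower, at -0.44 (0.029). These 2 calls were kept under 8 and 9 of 18 other settings. With the probe sets of each gene averaged, the differences were 0.27 for Thrsp (adjusted p = 0.124) and -0.24 for Hacd2 (0.234).

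Of 9 genes of glycerolipid synthesis, 1 was higher and 1 lower. Dgat1, which adds the last acyl chain of triglyceride, had 8.73, 8.44, 8.38 and 8.35 in L-GMPs, against 7.88, 7.77, 7.97 and 7.87 in GMPs. All L-GMP arrays were above all GMP arrays, by a difference of 0.60 (SE 0.11, adjusted p = 0.00561). A second Dgat1 probe set differed by 0.54 (0.0737), with overlap. Lpin2, a phosphatidate phosphatase that makes the diglyceride used by Dgat1, had 8.88, 9.08, 9.13 and 9.14 in L-GMPs, against 9.61, 9.99, 9.86 and 9.92 in GMPs. It was lower without overlap, at -0.79 (SE 0.11, adjusted p = 0.00138). A second Lpin2 probe set was lower, at -0.73 (0.014), and others differed by -0.34 (0.245) and -0.17 (0.572), with overlap.

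Of 17 genes of fatty acid oxidation, 3 were lower and 0 higher. Etfb, an electron carrier from acyl-CoA dehydrogenases, was lower, at -0.64 (SE 0.13, adjusted p = 0.00957). Decr1, a mitochondrial reductase of unsaturated fatty acids, was lower, at -0.58 (SE 0.10, 0.00464), and its second probe set was lower, at -1.17 (0.00132). Slc25a20, the carnitine carrier, was lower, at -0.54 (SE 0.14, 0.0354), a call kept under 9 of 18 other settings. Differences were negative in 14 of the 17, with a median of -0.23, beside the median of 0.01 over all genes.

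**Figure D5:**
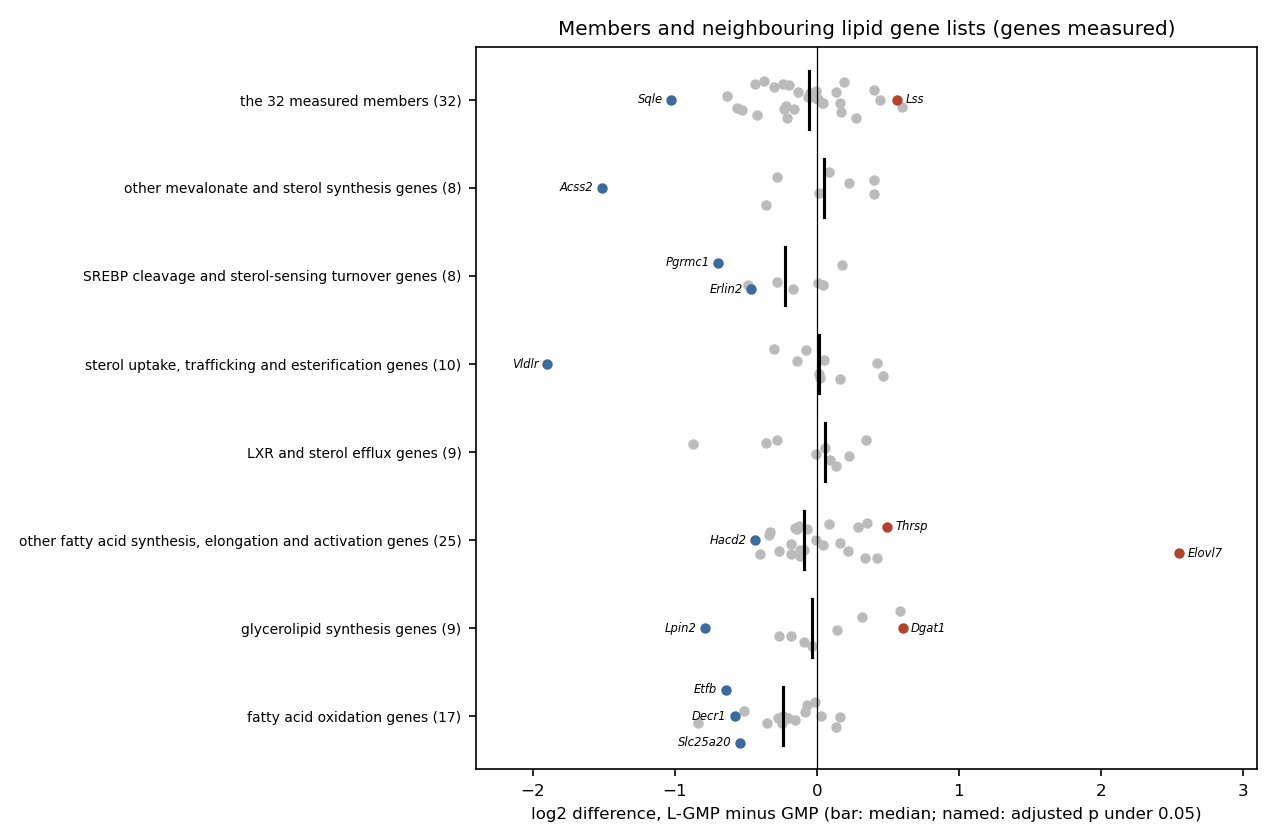
Log2 difference, L-GMP minus GMP, of the 32 members and of the genes of 7 further lipid lists (number measured in brackets); points are genes, bars are medians, and genes with an adjusted p under 0.05 are coloured and named. Elovl7 lies at 2.55, far to the right of all others, and Vldlr, whose L-GMP values lay below the lower quartile of the arrays, at -1.90.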

How the data were processed

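RNA of 8 sorted samples, 4 of L-GMPs and 4 of GMPs by their titles, was measured on Affymetrix mouse arrays. Per the labels' protocols, RNA was prepared with Trizol and a clean-up column. Per the submitters' processing notes, the deposited intensity values were made by the authors with RMA, which corrects background, normalizes between arrays and summarises probes. Its version and the genome build are not given in the sources used here. The deposited intensities are linear, from 3.54 to 29746.73, with 0 unused columns. The labels name a sense-strand labelling assay for whole transcripts, whereas the probe sets are those of a 3' array, so the strand and position covered are unknown.

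Log2 was taken. Of 45101 probe sets, 64 controls were left out, the platform annotation gave a single symbol to 34945, several to 932 and none to 9160. Entrez identifiers matched 34741 of the single-symbol sets to RefSeq (GRCm38.p6), with 0 symbols changed. The probe set with the highest mean stood for each of 18193 genes, a choice that high values in either group alone can make. The group difference was tested with limma (version 3.58.1) in R 4.3.3 (lmFit and eBayes on group, 2-sided, Benjamini-Hochberg over all genes at 0.05). Second probe sets were read from a fit of all 45037 probe sets. Means are given with SD over 4 arrays. The fit was tested on simulated data. The number of arrays limits the precision, and no detection call or batch was used.

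Every member was named, and up to 3 called genes of each other list. The members and lists were chosen with earlier results of these data known. The alternatives were median centring, quantile normalization, removal of the dimmest genes at 2 levels, averaging of probe sets, array weights, a trended robust prior, a block for the replicate letter, each array left out in turn, and 2 pairs of arrays left out together, chosen after seeing the data. Promoter sequences are from RefSeq.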

Additional observations from a re-analysis of the deposited data

Results flagged for a closer look

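In 2 of 64 groups of 4 values, 1 array stood far from the other 3 by Dixon's rule at the 95% level. About 1 in 20 groups is expected to be so by chance. For Sqle, GMP array A was at a log2 intensity of 7.163, and arrays B to D were at 7.598 to 7.681. It was still above all L-GMP arrays (6.20 to 6.83), and without it the call of Sqle was kept. For Hsd17b7, L-GMP array B had 7.66, against 7.075 to 7.114 on the other L-GMP arrays, and all 4 were above the GMP arrays (6.68 to 6.90). Both arrays also stood apart from their groups over all genes, and the part of this in the values was not tested.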

How the results depend on the processing

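The 32 members were compared under 18 other settings, in 573 comparisons. The side of the threshold was kept in 530, 9 calls were lost, all of Lss, and 34 were gained, in 12 members. Within the 530, the sign changed in 43 comparisons, in 10 members that were called neither as reported nor under that setting. No called member turned sign. The number of members called higher, 1 as reported, was 6 with median centring and 3 with quantile normalization, and it was 2 with array weights, with averaged probe sets and without the dimmest 25% or 50% of genes. It was 0 to 1 with each array left out in turn, and 0 without L-GMP array B and GMP array D (5 at an unadjusted p under 0.05). The number called lower, 1 as reported, was 4 with averaged probe sets and with array weights, 2 with a trended robust prior, and 1 to 3 with each array left out. It was 3 without L-GMP array B and GMP array D and 4 without L-GMP array B and GMP array A. Among all genes, the number called higher was 870 as reported, 2271 with median centring and 1192 with quantile normalization. It was 1276 with array weights, 940 with averaged probe sets, and 912 and 837 without the dimmest 25% and 50%. Called lower were 1323 genes as reported, 1629 with averaged probe sets, 1792 with array weights and 1333 with a trended robust prior. The replicate letters gave little sign of pairing over all genes (correlations of same-letter deviations of -0.05, -0.01, -0.07 and 0.11, with only D closest to its own letter). With 4 arrays per group, this cannot exclude that the letters pair the arrays. The replicate block gave 2 members higher, 2 lower and 1760 genes in all. The median difference of the members, -0.06 as reported, was 0.086 with median centring, -0.17 to -0.0032 with each array left out, and -0.17 without L-GMP array B and GMP array A. Of all 18193 genes, 2193 passed as reported, 1411 to 2388 with each array left out and 3068 with array weights. The share higher among called genes was 39.7%, against 71.1% of 3196 after median centring and 49.4% of 2413 after quantile normalization. The filters leave fewer genes to adjust over; the cause of the other changes was not tested. Of the called genes of the other lists, Acss2, Elovl7, Lpin2, Dgat1, Etfb, Decr1 and Vldlr kept their calls under every setting that gave a value, and Pgrmc1, Erlin2, Thrsp, Hacd2 and Slc25a20 lost theirs under some.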
